A study of Citrus reticulata and Citrus x clementina and Citrus x paradisi with 16 samples.

Results

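Transcript levels in ovules of the polyembryonic 'Cocktail' grapefruit (GF, Citrus paradisi) were compared between 0 days after flowering, before nucellar embryo initiation (NEI) cells are seen, and 3 days, when the study first saw them. The comparison rested on 4 of the 16 mRNA-seq libraries of the series, which were 2 replicates of GF-pre-NEI (0 days) and 2 replicates of GF-NEI (3 days). The members were chosen by these labels alone. The monoembryonic 'Huanong red' pummelo (PU) was sampled in the same way, with 2 libraries at each of the same days, and in PU the stage names only mark the matching day. According to the methods of the study, flowers of both cultivars were pollinated by hand on the day of anthesis with trifoliate orange pollen, many ovules from several adult trees went into each sample, and the replicates came from consecutive years. The labels do not say which replicate number belongs to which year. Days since flowering, pollination and the onset of NEI changed together between the groups and cannot be told apart. In whole ovules, fewer cells of a type and less RNA per cell cannot be told apart either.

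In many citrus cultivars, cells of the nucellus, the maternal tissue that encloses the embryo sac, can form embryos without fertilization. This form of apomixis is called nucellar or adventitious embryony, and it gives seedlings that are genetic copies of the seed parent beside the sexual embryo. Enzymes that remodel walls, hormone pathways and the transcription factors that microRNAs (miRNAs) keep in check are of interest in this tissue.

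Total counts in megacounts (M) were 18.7 and 34.2 M in the GF-pre-NEI replicates 1 and 2, and 19.3 and 12.97 M in the GF-NEI replicates 1 and 2, so the largest GF total was 2.64 times the smallest. The PU totals lay between 11.8 and 19.2 M. After the filter of at least 1 CPM (count per megacount) in 2 libraries, 19943 of 22595 loci were tested. The floor set by 3 counts lay at 0.0877 to 0.231 CPM in the GF libraries and covers counting error only. The ovule and carpel marker GHMADS-2 (Cs5g17820) was plentiful in all 4 libraries, at 317.8 and 241.3 CPM before and 378.2 and 405.2 CPM at NEI. Genes named as markers of other tissues had counts as well, and whether their transcripts came from those tissues was not tested. The pollen-specific C13-like gene (Cs3g18550) had 190 and 85.8 CPM before and 231 and 85.1 CPM at NEI, so that replicate 1 was the higher at both stages. A B-class MADS-box gene of petals and stamens (Cs1g24860) had 1.39 and 0.599 CPM before and 5.34 and 2.57 CPM at NEI, and its groups did not overlap. The Rubisco small subunit (Cs6g18680), a marker of green tissue, had 87.5 and 119 CPM before and 53.3 and 38.7 CPM at NEI. The AGL61-like genes of the central cell and endosperm, Cs7g26860 and orange1.1t00067, stayed between 2.27 and 13.7 CPM with overlapping groups. The locus of orange1.1t00067 also carries orange1.1t00068. None of these 6 markers was called by the quasi-likelihood test with or without the block, and their part in the results below was not tested.

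The stage change in GF was tested with edgeR's quasi-likelihood test, in which a call needed a change of at least 1 in either direction on the log2 scale and a p under 0.05 after Benjamini-Hochberg adjustment. Without a replicate block, 0 of 19943 loci were called (0% of those tested). At this setting 3358 loci had an unadjusted p under 0.05, 1754 of them higher and 1604 lower at NEI, and the smallest adjusted p was 0.0817. With replicate number as a block, 461 loci were called, or 2.31% of those tested, with 283 higher at NEI (1.42%) and 178 lower (0.893%). DESeq2 called 1232 loci (6.18%), 680 higher (3.41%) and 552 lower (2.77%). The exact test of edgeR called 825 (4.14%), 442 higher (2.22%) and 383 lower (1.92%). The block with the 4 GF libraries alone called 787 of 18135 loci (4.34%), 503 higher (2.77%) and 284 lower (1.57%). Of the 461 loci called with the block, DESeq2 also called 252 of the higher and 152 of the lower ones, the exact test 195 and 140, and the block with the GF libraries alone 236 and 139. The block call depended on single libraries. Each of the 4 GF libraries, left out in turn, reduced it to 0, with 1 library then remaining in that group. Leaving out either PU-pre-NEI library reduced it to 8, and leaving out PU-NEI replicate 1 or 2 raised it to 1194 or 1220, although no GF library is then removed. In the rest of the text the loci that rose or fell are those called with the block unless another test is named, and the adjusted p without the block is given beside it. These words mark that call only. Without the block 0 loci were called, and the replicate numbers were not taken to pair the libraries, as described further below.

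The 2 replicates moved largely together. Over the 19943 loci the log2 shift from pre-NEI to NEI in replicate 1 had a Pearson correlation of 0.661 with that in replicate 2, a description across loci, which are not independent replicates. A shift past 1 in both replicates was seen in 1081 loci upwards and 929 downwards, and 80 loci shifted past 1 in opposite directions. Both NEI libraries lay above both pre-NEI libraries in 25.7% of all tested loci and below both in 25.4%.

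**Figure D1:**
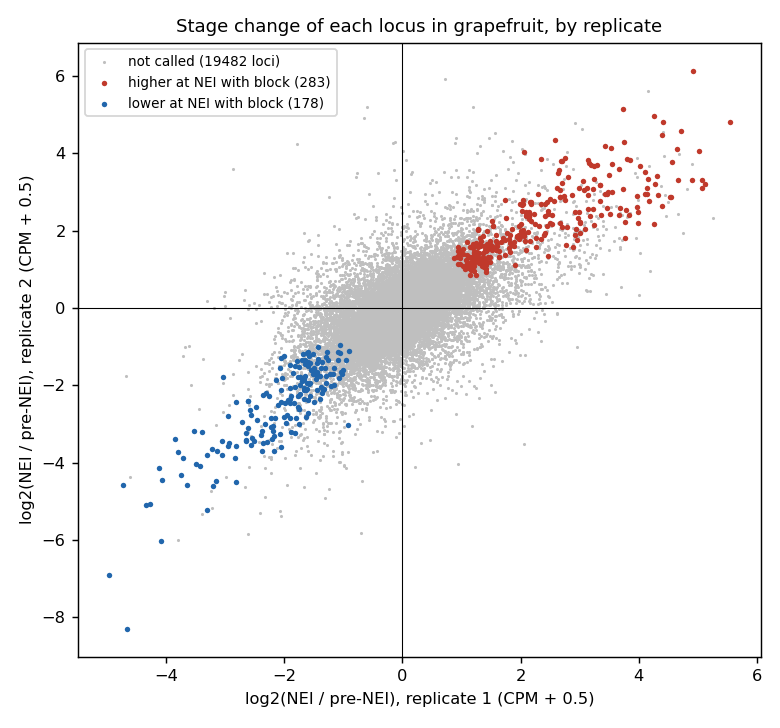
Each point is 1 of 19943 tested loci, placed by its log2 ratio of NEI to pre-NEI in replicate 1 (x axis) and replicate 2 (y axis), computed from CPM + 0.5. The 283 loci called higher (red) and the 178 called lower (blue) with the replicate block lie along the diagonal, and the grey cloud of loci not called is wide around 0. The block call itself favours loci that shift alike in both replicates.

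A test on counts reaches a call more easily at higher counts, so the traits of called loci given here are not independent of the call. Called loci were more strongly expressed than all tested loci together. Their median level over the 4 GF libraries was 52.7 CPM for loci that rose and 40.2 CPM for loci that fell, against 14.9 CPM over all tested loci. A mean of at least 100 CPM was reached by 29.7% of the risers and 27.5% of the fallers, against 13.8% of all tested loci. The median fitted log2 fold change was 2.23 among the risers and -2.16 among the fallers, and 155 risers and 98 fallers changed at least 4-fold. The counted transcript had a median length of 1423 bases in the risers, 2250 in the fallers and 1615 over all tested loci. No reference gene was attached to 8.13% of the risers and 13.5% of the fallers, against 17.9% of all tested loci. A gene of given function, that is 1 with an informative name in the sources used here, was carried by 384 tested loci. Of these, 4 rose and 7 fell, or 2.86% against 2.31% of all tested loci, and the 11 are described first.

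A receptor kinase and a protease were among the 4 risers of given function. The gene of an L-type lectin-domain containing receptor kinase IX.1-like protein (Cs8g12370, XLOC_016879, sweet orange chromosome 8, 14247140 to 14249632) had 2.5 and 2.96 CPM before NEI and 89.5 and 33.9 CPM at NEI. Kinases of this class carry an extracellular lectin domain and act in defence and in pollen development in Arabidopsis. Both NEI libraries lay far above both pre-NEI libraries, replicate 1 the higher, and the log2 fold change was 4.49 ± 0.59 (SE, n = 2 libraries per stage, adjusted p 0.0856) without and 4.35 ± 0.52 (adjusted p 0.0355) with the block. In PU it stayed between 0.268 and 0.722 CPM. A cysteine proteinase 15A-like gene (Cs7g24410, XLOC_015091, chromosome 7, 24166857 to 24169802), which encodes a papain-type protease, had 1.11 and 1.92 CPM before and 15.3 and 31.2 CPM at NEI. Here replicate 2 was the higher at both stages, and the log2 fold change was 3.92 ± 0.67 (adjusted p 0.105) without and 3.90 ± 0.58 (adjusted p 0.0435) with the block. No PU library exceeded 0.109 CPM for this gene, which is below the level of 3 counts there.

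The other risers of given function were a cytochrome P450 and an mst101-like gene. The cytochrome P450 gene (Cs3g22160, XLOC_005424, chromosome 3, 24833666 to 24835671), of the large family of haem enzymes that oxidise small molecules, had 0.998 and 0.852 CPM before and 10.9 and 7 CPM at NEI. The log2 fold change was 3.27 ± 0.54 (adjusted p 0.105) without and 3.23 ± 0.46 (adjusted p 0.0432) with the block. In PU the same gene had 5.16 and 5.93 CPM before and 4.38 and 2.14 CPM at NEI, the lower levels being the later ones. The gene named axoneme-associated protein mst101-like (orange1.1t00956, XLOC_019171, unplaced sequence, 14425286 to 14427623), after a sperm-tail protein of fruit flies, was abundant at both stages. It had 114 and 86.7 CPM before and 484 and 290 CPM at NEI, with a log2 fold change of 1.95 ± 0.39 (adjusted p 0.121) without and 1.91 ± 0.20 (adjusted p 0.0355) with the block. PU had 142 and 95.9 CPM before and 280 and 177 CPM at NEI.

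Transcription factors stood among the 7 fallers. The AP2-like gene named TOE2-like (Cs6g04120, XLOC_011546, chromosome 6, 4751290 to 4755950) belongs to the floral repressors that miR172 restrains in Arabidopsis, and the study listed it as a predicted target of miR172. It had 25.8 and 38.6 CPM before and 1.32 and 3.27 CPM at NEI, a 14.1-fold lower mean at NEI. The log2 fold change was -3.82 ± 0.63 (adjusted p 0.105) without and -3.85 ± 0.60 (adjusted p 0.0447) with the block. In PU the later stage was the higher one, with 1.52 and 0.561 CPM before and 6.29 and 7.77 CPM after. The TCP4-like gene (Cs7g25460, XLOC_014071, chromosome 7, 25950025 to 25952883), a predicted target of miR319 and, in Arabidopsis, a brake on cell proliferation in leaves, had 9.76 and 16.4 CPM before and 2.82 and 3.42 CPM at NEI. Its log2 fold change was -2.07 ± 0.46 (adjusted p 0.123) without and -2.02 ± 0.31 (adjusted p 0.0446) with the block. In PU the TCP4-like gene had 11.6 and 15.6 CPM before and 6.34 and 10.8 CPM at NEI.

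A steep fall was that of an arabinofuranosidase (Cs9g02570, XLOC_017543, chromosome 9, 1076585 to 1082706), an enzyme that removes arabinose from wall polysaccharides. It was one of the more abundant transcripts before NEI, with 234 and 1539 CPM, and had 7.02 and 12.3 CPM at NEI. The groups lay far apart although the pre-NEI replicates themselves differed several-fold, and the log2 fold change was -6.52 ± 1.34 (adjusted p 0.121) without and -6.10 ± 1.07 (adjusted p 0.0493) with the block. PU showed the same wide gap between its pre-NEI replicates, 87 and 719 CPM, and had 54.8 and 33 CPM at NEI. A lipoxygenase (Cs7g10360, XLOC_014675, chromosome 7, 6649966 to 6655181), of the enzymes that oxygenate fatty acids on the way to jasmonates and other oxylipins, fell from 85.9 and 114 CPM to 26.1 and 44.9 CPM. Its log2 fold change was -1.50 ± 0.37 (adjusted p 0.142) without and -1.53 ± 0.19 (adjusted p 0.0355) with the block. A locus with a putative tropinone reductase (Cs8g19105 together with Cs8g19070, XLOC_016433, chromosome 8, 21473214 to 21497580), a short-chain dehydrogenase type known from alkaloid synthesis in nightshades, fell from 19 and 12.6 CPM to 6 and 4.98 CPM (-1.51 ± 0.28, adjusted p 0.114, without and -1.50 ± 0.22, adjusted p 0.0435, with the block). It carries more than 1 reference gene, so the reads may not be those of the reductase. In PU this locus was far more abundant, with 153 and 136 CPM before and 308 and 302 CPM at NEI.

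The remaining fallers were a leucine-rich repeat receptor-like gene and a disease resistance gene. The gene of a receptor-like kinase with leucine-rich repeats, named as probably inactive (Cs2g12140, XLOC_003674, chromosome 2, 9119500 to 9122207) had 9.26 and 12.6 CPM before NEI and 0.06 and 0.234 CPM at NEI, from 565 counts in all before and 4 counts in all at NEI. The ratio of the summed counts, scaled for depth, was 83.8, with an exact 95% Clopper-Pearson counting interval of 32.5 to 309. The fitted log2 fold change was -6.22 ± 0.71 (adjusted p 0.0817) without and -6.24 ± 0.69 (adjusted p 0.0355) with the block. PU held 3.58 and 2.17 CPM before and 7.05 and 5.36 CPM at NEI. The counted transcript was only 313 bases long and overlaps a locus on the opposite strand (XLOC_002645, Cs2g12130, 9111715 to 9120896) that fell as well, from 430.7 and 604.1 CPM to 37.7 and 36.3 CPM (log2 fold change with the block -3.77). Whether reads were counted by strand is not given in the sources used here, so reads of the overlap cannot be told apart. The probable disease resistance protein gene (Cs1g13270, XLOC_000368, chromosome 1, 16363624 to 16366468), of the nucleotide-binding leucine-rich repeat (NBS-LRR) class of immune receptors, had 2.11 and 3.31 CPM before and 0.36 and 0.234 CPM at NEI. From 143 and 9 counts the ratio was 9.42, with a counting interval of 4.83 to 21 (fitted log2 fold change -3.15 ± 0.51, adjusted p 0.1, without and -3.12 ± 0.50, adjusted p 0.0448, with the block). It lay higher in PU at both stages, where 19.1 and 26.1 CPM were followed by 5.69 and 4.29 CPM. DESeq2 and the exact test, which use the same counts, each called all 11 of these loci in the same directions. The dependence of the block call on single libraries, given above, applies to each of the 11.

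**Figure D2:**
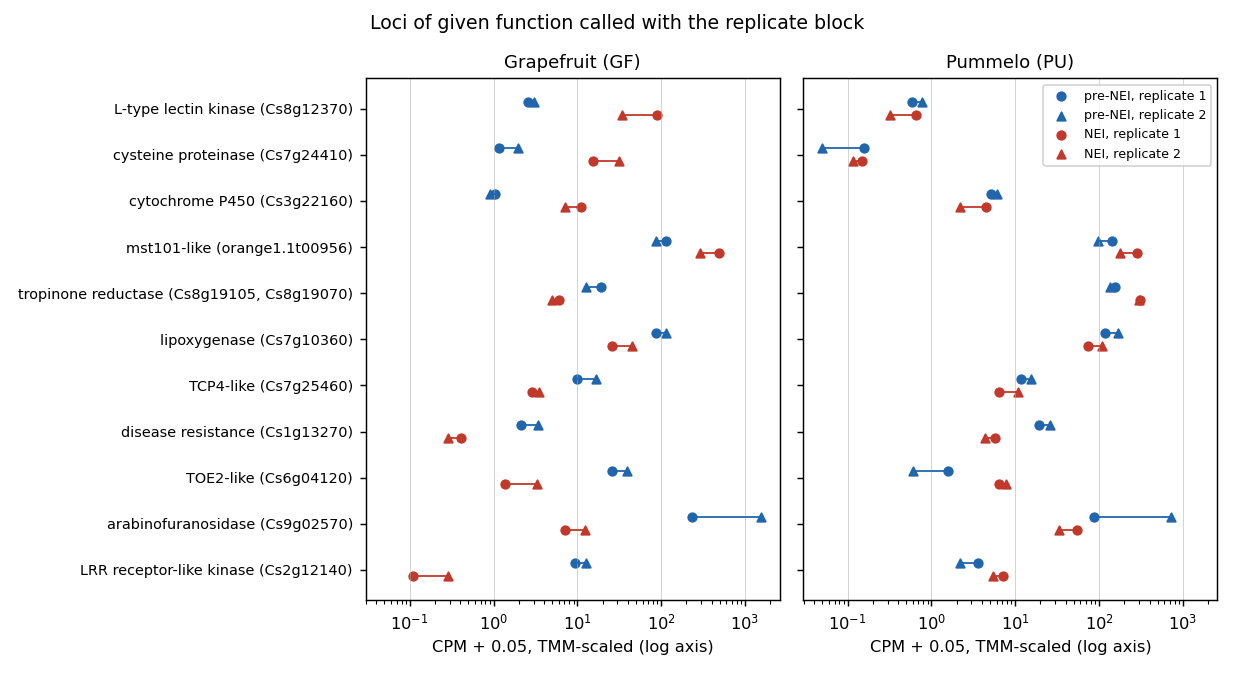
CPM + 0.05, scaled by TMM, on a log axis in each library of GF (left) and PU (right) for the 11 loci of given function called with the replicate block, with pre-NEI in blue, NEI in red, circles for replicate 1 and triangles for replicate 2. In GF no red point of a locus overlaps a blue one, which the choice of loci by their call in GF favours. In PU the TOE2-like gene, the tropinone reductase locus and the leucine-rich repeat gene lie higher at NEI and the cytochrome P450 lower, the reverse of GF.

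Most called loci had no function in the sources used here, and 4 of them are named by size of change among those with at least 10 CPM in both libraries of a stage. The locus of orange1.1t02225 (XLOC_020901, unplaced sequence, 33909775 to 33911299) had 1.33 and 0.189 CPM before and 84.6 and 18.7 CPM at NEI, with a log2 fold change of 6.13 ± 0.48 (adjusted p 0.0291) with the block and an adjusted p of 0.115 without it. It rose in PU too, from 1.03 and 0.241 CPM to 185 and 94.3 CPM (adjusted p 0.00885 with the block). The locus of orange1.1t03455 (XLOC_019810, unplaced sequence, 53006058 to 53007474) had 4.1 and 2.27 CPM before and 139 and 195 CPM at NEI (5.95 ± 0.74, adjusted p 0.0355 with and 0.105 without the block), and in PU 17.2 and 5.29 CPM before and 34.4 and 7.04 CPM at NEI. Of the fallers, the locus of Cs5g26860 (XLOC_010680, chromosome 5, 29572156 to 29577040) had 80.7 and 597 CPM before and 2.7 and 1.4 CPM at NEI (-6.93 ± 1.03, adjusted p 0.0435 with and 0.093 without the block), while no PU library exceeded 0.536 CPM. It was also the single locus called without the block when GF-pre-NEI replicate 1 was left out. The other was XLOC_022404 (unplaced sequence, 68736299 to 68736768), which has no reference gene, with 13.9 and 18.9 CPM before and 0.24 and 0.0778 CPM at NEI (-6.51 ± 0.74, adjusted p 0.0355 with and 0.0817 without the block). It rested on 850 and 5 counts, a ratio of 101 with a counting interval of 43 to 311, and lies inside XLOC_021457, which fell as well.

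Since fewer than 10 loci of given function were called in each direction, the genes with exactly 1 reference gene and the smallest p were added to make 10 in each direction. None of these was called with or without the block, so their values are given as such. A blue copper protein gene (Cs4g18120), of the small copper proteins of the cell surface, had 175 and 217 CPM before and 1192 and 776.7 CPM at NEI (log2 fold change 2.33 ± 0.49, adjusted p 0.121 without and 0.0625 with the block). In PU it had 56.2 and 83.2 CPM before and 46.8 and 19.2 CPM at NEI. A gene named SRG1 (Cs9g09290), of the oxoglutarate-dependent dioxygenases, had 1.77 and 5.71 CPM before and 49.9 and 31.8 CPM at NEI, and at most 0.503 CPM in any PU library. The anthranilate N-methyltransferase gene (orange1.1t00578), whose enzyme opens acridone alkaloid synthesis in rue, had 0.277 and 0.505 CPM before and 20.4 and 3.35 CPM at NEI, where the replicates stood far apart. The vacuolar processing enzyme gene (Cs1g10260), a protease of vacuoles and maturing seeds, had 5.54 and 4.51 CPM before and 10.7 and 18.6 CPM at NEI. Smaller differences were those of a GRAS factor gene (orange1.1t00200), with 39.1 and 37.5 CPM before and 73.6 and 96.9 CPM at NEI, and of ubiquitin (Cs1g06060), with 12.3 and 9.24 CPM before and 36.9 and 18.1 CPM at NEI. DESeq2 called all 6, and the exact test the first 3.

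On the lower side, the amino acid permease 7-like gene (Cs4g07790), a carrier that loads amino acids into cells, had 50.7 and 194 CPM before and 4.38 and 4.36 CPM at NEI (log2 fold change -4.81 ± 1.01, adjusted p 0.121 without and 0.0675 with the block). PU had 33.4 and 144 CPM before and 9.51 and 2.88 CPM at NEI. A serine-threonine protein kinase gene (Cs1g11710) had 9.37 and 9.15 CPM before and 1.62 and 1.01 CPM at NEI, and at most 0.201 CPM in PU. The SPL6-like gene (Cs7g11770), a squamosa promoter binding factor of the phase-change pathway and a predicted target of miR156, had 23.6 and 44.7 CPM before and 8.58 and 9.34 CPM at NEI (-1.93 ± 0.45, adjusted p 0.134 without and 0.0534 with the block). The Rubisco small subunit gene, given above among the markers, completed the group with a log2 fold change of -1.17 ± 0.27 in GF and -1.35 in PU. DESeq2 called all 4 and the exact test the first 3.

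The conserved miRNA families of plants act on small sets of transcription factor and receptor genes, whose transcripts they cut, and the study predicted such targets in citrus. All 3 tested TCP genes predicted as miR319 targets had log2 fold changes below 0. Beside the TCP4-like gene that fell, a second TCP4-like gene (Cs2g15820) had 49.4 and 66.9 CPM before and 30.6 and 42.1 CPM at NEI (-0.68 ± 0.26, adjusted p 0.259), and in PU 102 and 99.4 CPM before and 47.9 and 47.6 CPM at NEI. Of 4 miR172 targets named AP2, TOE or RAP2, 3 lay below 0, and only the TOE2-like gene was called. The 6 SPL genes predicted for miR156 were split evenly around 0. Of these, an SPL2-like gene (Cs7g10830) had 44.2 and 43.9 CPM before and 19.3 and 24.4 CPM at NEI (-1.01 ± 0.25, adjusted p 0.14 without and 0.0598 with the block), and the same gene in PU fell from 45.3 and 52.6 CPM to 19.4 and 19.4 CPM (adjusted p 0.0429 with the block). DESeq2 called the SPL6-like and SPL2-like genes lower in GF.

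Targets in auxin signalling lay on both sides of 0. The auxin receptor gene TIR1 (Cs5g32500), a predicted target of miR393, had 106 and 127 CPM before and 63.6 and 55.6 CPM at NEI (log2 fold change -0.97 ± 0.24, adjusted p 0.147 without and 0.072 with the block). The auxin response factor 8-like gene (Cs6g16030), a predicted target of miR167, had 90.3 and 90.1 CPM before and 45.4 and 43.9 CPM at NEI (-1.01 ± 0.30, adjusted p 0.187 without and 0.0969 with the block). The 4 auxin response factor genes predicted for miR160 all had log2 fold changes above 0, with a median of 0.20, and so had the 4 HD-ZIP genes predicted for miR166, with a median of 0.41. None of them was called. A scarecrow-like gene predicted for miR171 (Cs9g19410), of the GRAS factors, had 173 and 221 CPM before and 85 and 88.6 CPM at NEI (-1.18 ± 0.31, adjusted p 0.16), while the GRAS gene named above differed in the other direction. DESeq2 called the scarecrow-like gene lower. The growth-regulating factor 8-like gene (Cs5g01380), a predicted target of miR396, had 75.1 and 90 CPM before and 51.4 and 25.8 CPM at NEI (-1.10 ± 0.37, adjusted p 0.22), and the 8 growth-regulating factor genes together were split evenly around 0. Over the 353 tested loci of the miRNA target list, 1.42% were called with the block, against 2.31% of all tested loci.

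**Figure D3:**
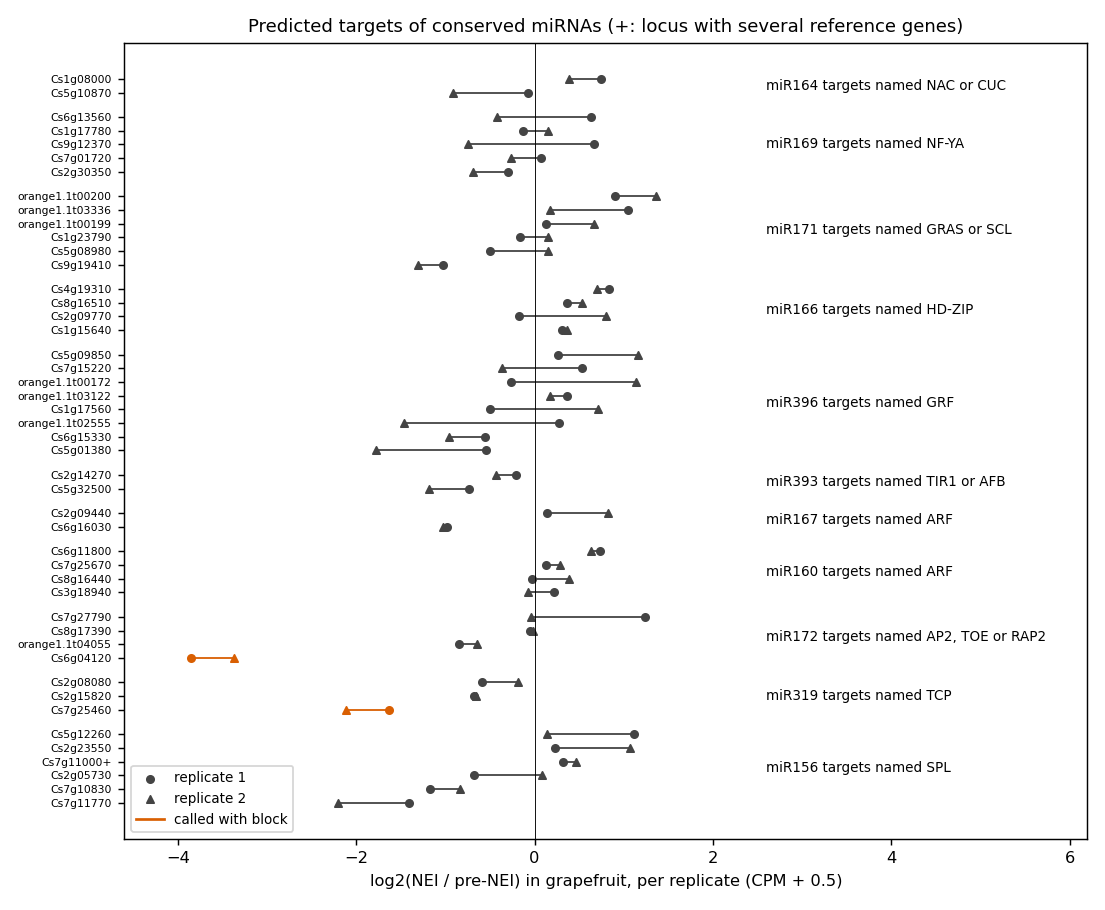
The log2 ratio of NEI to pre-NEI in GF, from CPM + 0.5, is drawn for replicate 1 (circle) and replicate 2 (triangle) of each tested predicted target, grouped by miRNA family. The TOE2-like gene Cs6g04120 and the TCP4-like gene Cs7g25460, in orange, were called with the block, and in most other families members lie on both sides of 0.

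Of 24 gene lists built from the given functions, 7 held a locus called with the block. Over the 384 tested loci of given function the share called was 2.86%, against 2.31% of all tested loci. The count in each list rests on few loci and is a description. The receptor-like kinase and leucine-rich repeat list (13 tested loci) held 1 riser, the lectin kinase, and 1 faller, the leucine-rich repeat gene, with a median log2 fold change of 1.02 against -0.02 over all tested loci. That median ranged from 0.39 to 1.02 when single libraries were left out. Computed from CPM + 0.5, which damps the changes of weakly expressed loci, the median shift of this list was only 0.271 in replicate 1 and 0.22 in replicate 2. The AP2, NAC and TCP list (9 loci) held the TOE2-like and TCP4-like fallers and had a median of -0.51. In the list of small RNA, DNA methylation and chromatin proteins, all 8 tested loci had log2 fold changes below 0, from -0.95 to -0.01 with a median of -0.38, and in 5 of them both NEI libraries lay below both pre-NEI libraries, a position held by 25.4% of all tested loci. Dicer-like 1 (orange1.1t00584), the enzyme that releases miRNAs from their precursors, led this list with 119 and 226 CPM before and 85.4 and 92.8 CPM at NEI (-0.95 ± 0.32, adjusted p 0.225). In PU the median of the list was also below 0, at -0.579, whereas Dicer-like 1 had a log2 fold change of 0.083 there. None of the 8 was called by any of the 4 main alternatives, that is the block, DESeq2, the exact test or the block with the 4 GF libraries alone. The wall enzyme list (9 loci), which holds the arabinofuranosidase, had a median of -0.17. Its median shift from CPM + 0.5 differed in sign between the replicates, with -0.48 in replicate 1 and 0.366 in replicate 2. The 6 proteases, which include the proteinase 15A-like riser, had a median of 0.28.

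Defence and stress lists were mixed. The NBS-LRR and TMV resistance list was the largest, with 40 tested loci, of which 1 fell and 0 rose with the block, or 2.5% against 2.31% of all tested loci. Its median was -0.36, with 13 of 40 loci above 0, but it ran from -0.59 to 0.06 when single libraries were left out. Among its predicted miR482 targets, 22 of 30 lay below 0 and both NEI libraries lay below both pre-NEI libraries in 10 and above both in 3, positions held by 25.4% and 25.7% of all tested loci. The 5 loci of chitinases, glucanase and other defence proteins all had log2 fold changes above 0, from 0.40 to 1.58, and none was called. Of 14 phenylpropanoid, flavonoid and O-methyltransferase loci, 0 were called with the block, 2 were called higher by DESeq2, and the median of 0.42 passed through 0 to -0.08 when GF-NEI replicate 1 was left out. A peroxidase (orange1.1t02045) had the largest difference in the oxidative stress list, with 25.2 and 22.1 CPM before and 7.26 and 4.12 CPM at NEI (-2.05 ± 0.74, adjusted p 0.239 without and 0.065 with the block). DESeq2 did not call it. In this list 6 of 9 loci lay above 0. DESeq2 called 1 of them higher (XLOC_019444, which carries several reference genes, fitted log2 fold change 1.47 without the block) and 0 lower. The list median was 0.25, and from CPM + 0.5 it was 0.18 in replicate 1 and -0.532 in replicate 2. A WRKY factor gene (orange1.1t05133) had 2.94 and 3.56 CPM before and 16.4 and 12.8 CPM at NEI (2.16 ± 0.97, adjusted p 0.315), the largest difference in a list of 14 regulators whose median was 0.40. The heat shock protein 83-like gene (Cs9g19220) had 36.4 and 8.83 CPM before and 8.22 and 5.45 CPM at NEI, and the cohesion gene DCC1-like (Cs1g02740) had 14.9 and 5.77 CPM before and 5.52 and 6.15 CPM at NEI. Neither was called.

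**Figure D4:**
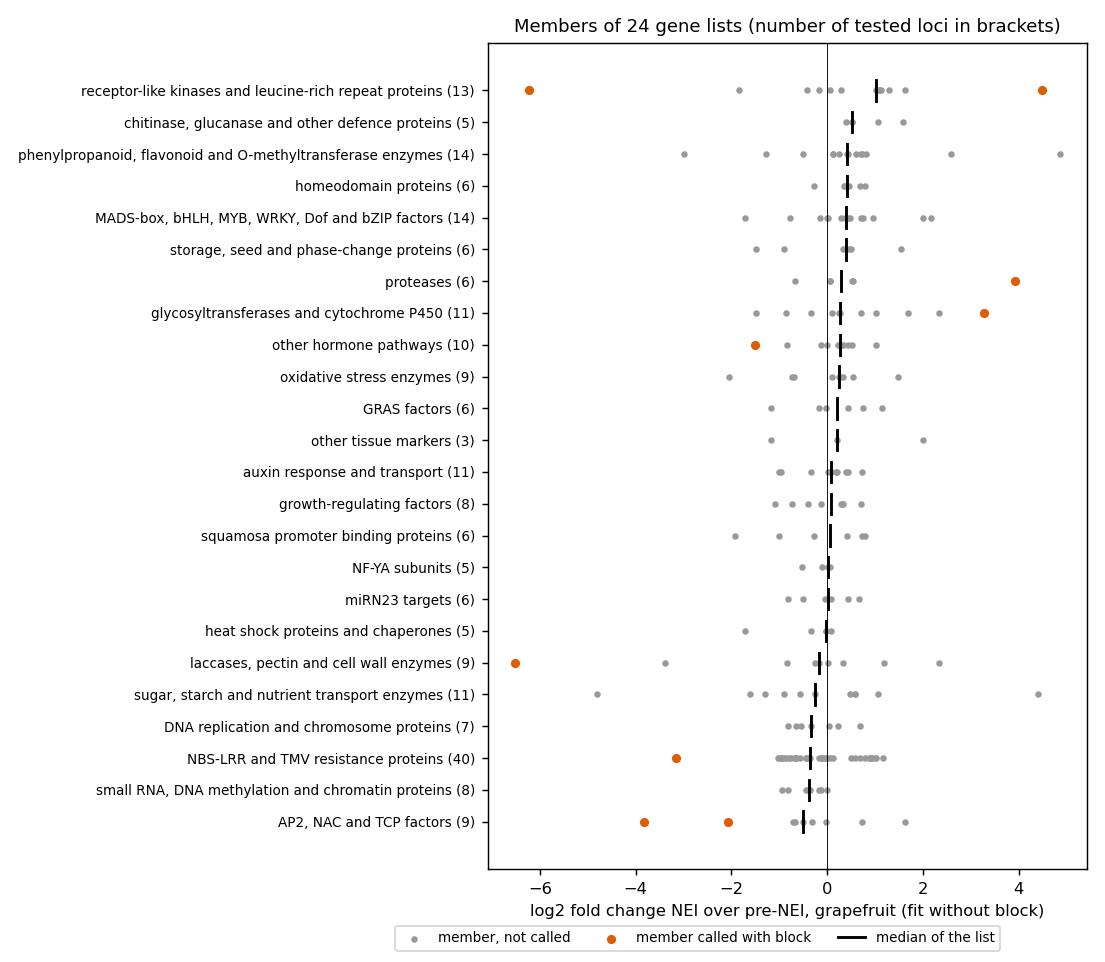
Fitted log2 fold change of NEI over pre-NEI in GF, without the block, for every tested member of the 24 gene lists, with the number of tested loci in brackets and the list median as a black bar. Orange points are members called with the block, and the medians run from -0.51 in the AP2, NAC and TCP list to 1.02 in the receptor-like kinase list. From CPM + 0.5 the receptor-like kinase median was 0.271 in replicate 1 and 0.22 in replicate 2.

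The remaining lists had no member called with the block apart from the cytochrome P450 and the lipoxygenase already described. The homeodomain gene ATHB-8 (Cs4g19310), a vascular regulator in Arabidopsis, had 21.9 and 15.8 CPM before and 39.4 and 25.9 CPM at NEI. The NF-YA gene Cs2g30350, a subunit of a CCAAT-binding factor, had 50.9 and 83.7 CPM before and 41.4 and 51.7 CPM at NEI, with overlapping groups. The jumonji-domain gene Cs7g24910, of a class of histone demethylases and a predicted target of miRN23, had 72.7 and 91.2 CPM before and 58.2 and 35.2 CPM at NEI (-0.81 ± 0.31, adjusted p 0.254). Over the 178 tested loci of the study's common list, 6.18% were called with the block, 7 higher and 4 lower, against 2.31% of all tested loci. The authors chose this list on libraries of this series by differences between cultivars, so it is not independent of these counts.

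The genes with qRT-PCR measurements were looked up as well, and of the 8 loci tested here none was called with or without the block. The study measured a single UDP-glycosyltransferase. Which of the UDP-glycosyltransferase loci below it was is not settled here, so both are given. Laccase (LAC, Cs6g07400), an oxidase of lignin formation, had 71.2 and 136 CPM before and 236 and 236 CPM at NEI (log2 fold change 1.18 ± 0.46, adjusted p 0.26), whereas PU had 3.15 and 3.45 CPM before and 1.01 and 0.268 CPM at NEI. The acidic endochitinase-like gene (ACTL, Cs9g14710), of the enzymes that cleave chitin, had 8.59 and 19.9 CPM before and 29 and 56.3 CPM at NEI (1.58 ± 0.51, adjusted p 0.211). Its groups did not overlap, and replicate 2 was the higher at both stages. UDP-glycosyltransferase 92A1-like (orange1.1t03150) had 2.05 and 3.44 CPM before and 19.9 and 8.02 CPM at NEI. UDP-glycosyltransferase 76C4 (Cs9g16640) had 1.94 and 8.8 CPM before and 5.58 and 29.6 CPM at NEI, where replicates differed more than stages. The other 4 differed by less than 1 on the log2 scale and had overlapping groups, apart from PHGPx. Chitinase (CHI, Cs5g21870) had 1.11 and 2.96 CPM before and 2.28 and 3.58 CPM at NEI. The glutathione peroxidase gene PHGPx (Cs1g10745), which detoxifies lipid peroxides, had 8.32 and 11.9 CPM before and 4.14 and 8.09 CPM at NEI. The XS domain gene (Cs9g06920) had 32.3 and 60 CPM before and 25.9 and 38.8 CPM at NEI, and digalactosyldiacylglycerol synthase (DGDG, orange1.1t00318), of chloroplast membrane lipids, had 63.4 and 68.7 CPM before and 75.1 and 64 CPM at NEI. The DGDG locus also carries orange1.1t00320 and overlaps other loci, so the reads may not be those of the synthase. The ankyrin gene AKN was not analysed here.

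The PU groups share no library with the GF groups, but all 8 libraries set the spread, the block and the scaling of the fit, so the GF calls are not independent of the PU libraries. PU served to ask which of these changes also occurred where no nucellar embryos form. Over all tested loci the log2 fold changes of GF and PU had a Pearson correlation of 0.347 and a Spearman correlation of 0.295, as a description across loci. Of the 283 GF risers, 78.8% had a fold change above 0 in PU, and of the 178 fallers 16.9% did, against 50.4% of all tested loci. The median PU log2 fold change was 0.62 among the GF risers and -0.97 among the fallers. With the block, 507 loci were called in PU (2.54%), and among them were 38 GF risers that also rose in PU and 45 GF fallers that also fell. In the opposite direction, 3 GF risers fell in PU and 2 GF fallers rose. These counts rest on the fit of all libraries, since the block with the 4 PU libraries alone called 0 of 18213 loci (smallest adjusted p 0.257). Leaving out single libraries took the PU count to 0 without any GF library or either PU-pre-NEI library, to 9 without PU-NEI replicate 2 and to 2533 without PU-NEI replicate 1. Without the block 0 loci were called in PU, of which 4191 had an unadjusted p under 0.05, and DESeq2 called 1712.

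**Figure D5:**
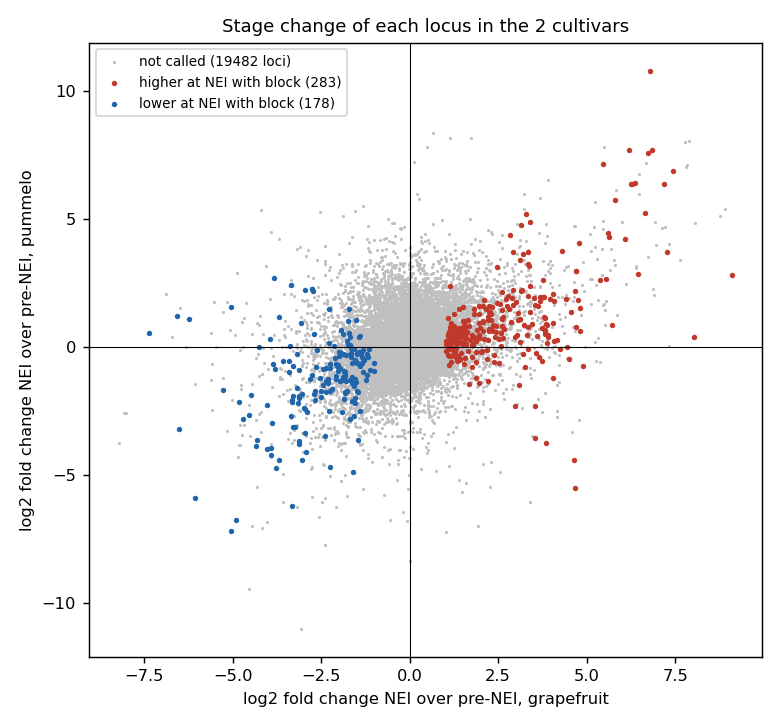
Fitted log2 fold change of NEI over pre-NEI in GF (x axis) and PU (y axis), without the block, for 19943 tested loci. Most loci called higher in GF with the block (red) lie above 0 in PU and most called lower (blue) lie below 0, with exceptions in the other 2 quadrants.

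Whether the stage change differed between the cultivars was tested as the interaction. The quasi-likelihood test called 0 of 19943 loci without the block (0%) and 0 with it. Without the block 2338 loci had an unadjusted p under 0.05, and the smallest adjusted p was 0.173. With the block and without PU-NEI replicate 1, 335 loci were called, and 0 when any other single library was left out. DESeq2 called 456 loci (2.29%), among them 46 of the GF risers and 34 of the fallers. By DESeq2 alone, the difference between GF and PU was called for 5 of the 11 loci described first. The risers, the fallers and these 11 loci were chosen by their GF change, which is part of the interaction. The counts of interaction calls among them are therefore not independent of that choice. The lectin kinase had a log2 difference of 4.97 by the quasi-likelihood test (adjusted p 0.28) and 4.96 by DESeq2 (adjusted p 0.000104), and the cytochrome P450 4.03 (0.28) and 4.01 (0.000216). The leucine-rich repeat gene had -7.33 (0.208) and -7.44 (1.72e-09), the TOE2-like gene -6.53 (0.219) and -6.58 (3.25e-10), and the tropinone reductase locus -2.59 (0.27) and -2.62 (1.57e-05). The blue copper protein (3.38, adjusted p 0.00046), laccase (3.48, adjusted p 0.00109) and the DCC1-like gene (-3.52, adjusted p 0.0244) were also called by DESeq2 alone, and had adjusted p of 0.28 to 0.33 by the quasi-likelihood test. For the cysteine proteinase, at or below the level of 3 counts in every PU library, the difference was 3.51 (0.429) and 3.46 (0.273).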

How the data were processed

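Whole-ovule mRNA was measured in 8 libraries of grapefruit (GF) and pummelo (PU), in 4 groups of 2 taken from the labels. The authors aligned reads with TopHat and Bowtie to the sweet orange genome and assembled transcripts with Cufflinks, and the labels also list Cuffdiff. Versions, the genome release, the read counter and the strand setting are not given in the sources used here. The deposited values per library carry no unit in the header and, being whole numbers with unequal totals, were read as counts. They cover 94049 transcripts of 22595 loci, of which 5403 carry no reference gene and 1416 carry several. The median isoform had 0.807 times the count of the top isoform, so isoforms appear to share reads, and each locus was counted by the transcript with the highest sum over the 8 libraries. Overlapping loci and paralogs may share reads too. The authors' pooled FPKM columns were not used.

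Loci with at least 1 CPM in 2 libraries were kept. The test was edgeR's quasi-likelihood test (edgeR 4.0.16, R 4.3.3) with TMM scaling on all 8 libraries as 4 groups (4 residual degrees of freedom, and 3 with replicate number as a block), with Benjamini-Hochberg adjustment over all tested loci. SEs were derived as the absolute log2 fold change over the root of F. CPM values are TMM-scaled. Library totals, from 11.8 to 34.2 megacounts, set the precision. The p-values cover only the spread between these 2 replicates a group, collected in consecutive years. Alternatives were the block, DESeq2 1.42.0, edgeR's exact test, other size factors, fewer libraries, other filters, summed transcripts and each library left out. The exact test gives no interaction. The block with a library left out was added after seeing the data. The scripts were checked on simulated counts.

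Functions are those that the study gave to 655 genes, of which 470 name a function. Members and lists were chosen with earlier results of these data known. Named were list members called, the largest log2 fold change in each list, genes of given function (10 per direction, filled from loci called with the block and then by smallest p, since 0 were called without it), the 2 largest rises and falls of called loci without function and with at least 10 CPM in both libraries of a stage, the 6 markers, the genes measured by qRT-PCR and predicted targets of conserved miRNAs with an unadjusted p under 0.05. For loci without function the calls with the block were used. Both UDP-glycosyltransferase loci were kept with the genes measured by qRT-PCR, although the study measured a single one. Keyword lists, which need an annotation of the sweet orange genes, were not run.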

Additional observations from a re-analysis of the deposited data

How the results depend on the processing

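The count of loci called in GF was 0 without the block and stayed 0 with DESeq2's size factors, a minimum of 5 CPM, no filter, summed transcripts or the 4 GF libraries alone. It was 461 with the replicate block (283 higher, 178 lower), 787 with the block and the 4 GF libraries alone (503 higher, 284 lower), 1232 by DESeq2 (680 higher, 552 lower) and 825 by the exact test (442 higher, 383 lower). Leaving out single libraries gave 0 to 1 calls without the block (0 higher, 0 to 1 lower). With the block, an alternative added after seeing the data, it gave 0 without any GF library, 8 (5 higher, 3 lower) without either PU-pre-NEI replicate, and 1194 (686 higher, 508 lower) and 1220 (703 higher, 517 lower) without PU-NEI replicate 1 and 2. In PU the count was 0, against 507 with the replicate block, 1712 by DESeq2, 940 by the exact test, 6 at 5 CPM, 0 with the block and the 4 PU libraries alone, and 0 to 41 without single libraries (0 to 2533 with the block, with 9 without PU-NEI replicate 2 and 2533 without PU-NEI replicate 1). The interaction had 0 calls, 456 by DESeq2 and 335 with the block and without PU-NEI replicate 1. The cause of these differences was not tested.

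Whether replicate numbers pair the libraries was checked from the shift of replicate 2 against replicate 1 over 19943 loci. Its Pearson correlation was 0.493 between the GF stages, 0.125 between the PU stages and 0.0725 to 0.624 across cultivars, so 1 of 6 pairs of groups lay under 0.1 and the numbers were not taken to pair the samples. The replicates came from consecutive years, but no label ties a number to a year.

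The 52 named loci had 1296 values under alternatives, of which 1157 kept the direction and side of the threshold, 129 passed the threshold in addition and 10 turned sign, all 10 when a library was left out. They belong to Cs1g02740 (-0.82, range -1.36 to 0.01 without the block and up to 0.28 with it), Cs3g18550 (0.20, range -0.68 to 0.88 and down to -0.17), Cs5g21870 (0.51, range -0.02 to 1.39 and down to -0.08), orange1.1t00067 (0.70, range -0.07 to 1.21) and orange1.1t00318 (0.07, range -0.03 to 0.19 and down to -0.15), and none of the 5 was called. The reference for the 1296 values was the fit without the block, in which no locus was called, so none could lose a call. They therefore do not show how stable the calls with the block were, whose dependence on single libraries is given above. With 2 libraries a group and totals that differ 2.64-fold, low loci are the least certain, and an arm left with 1 library is assumed to vary like the other groups.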

Other observations

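Loci that were nearly silent at one stage were counted as a description, by a rule chosen after the values were seen, namely at most 3 counts in each GF library of one stage and at least 1 CPM in both GF libraries of the other. There were 40 such loci that appeared at NEI and 29 that disappeared. In the GF-pre-NEI libraries 3 counts stood for 0.161 and 0.0877 CPM, and in the GF-NEI libraries for 0.155 and 0.231 CPM. The 2 sets therefore rest on unlike floors. The 40 appearing loci were weakly expressed, with a median of 3.63 CPM in NEI replicate 1 and 1.67 CPM in replicate 2 and none above 20.2 CPM. Together they summed to 1.77 and 1.83 CPM before and 179 and 94.3 CPM at NEI. In PU the same loci summed to 7.17 and 8.1 CPM before and 131 and 131 CPM at NEI, 28 of them reached 1 CPM in both PU-NEI libraries, and 15 met the same rule there. Of the 40, 21 had no reference gene, 0 had a given function, and 31 were higher in NEI replicate 1 than in replicate 2, so their level moved with the replicate as well. The replicate block called 16 of the 40 and DESeq2 36, against 2.31% and 6.18% of all tested loci. The rule and these calls use the same counts, so the calls are not independent of the rule.

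The 29 disappearing loci summed to 63.4 and 107 CPM before and 3.18 and 3.27 CPM at NEI. In PU they summed to 20.1 and 25.4 CPM before and 23.7 and 19.1 CPM at NEI, 18 of them were under 1 CPM in every PU library, and 0 met the same rule there. Only 1 had a given function, the leucine-rich repeat gene Cs2g12140, 14 had no reference gene, and the block called 3 and DESeq2 17. These calls are not independent of the rule either. Whether the appearing and disappearing loci differ in how they behave in PU was not tested. Along the genome, the share of tested loci called with the block ran from 1.73% on unplaced sequence to 2.91% on chromosome 7, against 2.31% overall. Chromosome 9 held 22 risers and 4 fallers among 1243 tested loci, a called share of 2.09%. Over all tested loci 1.42% rose and 0.893% fell. This chromosome is named only for its split by direction, which was not tested. Of 35 pairs of neighbouring called loci, 31 changed in the same direction and 12 overlapped, so neighbours are not separate evidence.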
